A study of Mus musculus with 15 samples.

Results

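Heat shock proteins of the cytosol and the mitochondrion were followed in mouse hearts taken 48 h after the onset of abdominal sepsis. The set was defined by gene symbol alone, with no measured value. It comprised every gene whose symbol begins with Hspa, Hspb, Hspd, Hspe, Hsph, Hsp90ab or Dnaja, Dnajb or Dnajc and a number, apart from 5 members of the endoplasmic reticulum (Hspa5, Hspa13, Dnajb9, Dnajb11 and Dnajc3). Of the 12393 genes measured by probe sets paired with 1 gene, 54 belonged to the set, and they were measured by 107 probe sets. Their levels are the mean over the probe sets of a gene. The spelling of the definition does not reach Hsp90aa1, the inducible cytosolic Hsp90, whose symbol has a letter where a number was asked for. Hsp90aa1 was measured by 3 probe sets and is given beside the members, never counted among the 54. Hsp90ab1, Hspb6 and Hspa12a had no probe set paired with 1 gene and were not analysed here, and Dnajc19 shared its probe sets with its pseudogene. The definition keeps some J proteins of the endoplasmic reticulum, such as Dnajb12, Dnajc1 and Dnajc10.

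The 15 arrays, 1 per heart, fell into 5 groups of 3. Wild-type C57/BL6 mice had either a sham laparotomy, in which the caecum was moved and put back, or caecal ligation and perforation (CLP), in which it was tied off and punctured so that gut contents leaked. The wild-type CLP hearts were labelled Min Dep or Max Dep. The labels do not say what those words rank, and the series title speaks of myocardial depression. Congenic B6.129P2-Nos2tm1Lau/J mice (iNOS KO), which lack inducible nitric oxide synthase in every cell and so also in their controls, made up a sham and a CLP group. All mice received isoflurane, buprenorphine and saline, and ketamine with xylazine before the heart was removed. Ages were not given in the labels. Nothing in the labels says that hearts were pooled, and p-values measure the spread between these arrays. Whole hearts were ground, so a value mixes heart muscle with every other cell type, and fewer cells of a type and less RNA per cell cannot be told apart.

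Wild-type and knockout arrays lie in separate tables on different array models. The wild-type values are standardised scores (probe sets and arrays all have an SD near 1), so they carry neither a level nor a fold, and 1 unit is about 1 SD of a probe set over the 9 hearts. The knockout values behave as centred log values whose base is not given. Genotype, table and array model cannot be told apart, and values of one table are never set against the other in size. For the same reason the tissue cannot be checked by the level of its defining markers, although all 11 heart muscle markers sought were measured. Nos2 itself, the disrupted gene, read -0.35, -1.43 and 0.57 in the knockout CLP hearts and 0.12, -0.72 and 1.06 in the knockout sham hearts, which on centred values cannot check the genotype. The column of knockout CLP replicate 1 lay between the other CLP columns in 75.8% of probe sets, against 32.8% to 34.4% for the sham columns. It was left out of the knockout tests, and its values are printed first among the CLP hearts.

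Heat shock proteins are chaperones: they hold unfolded protein chains, stop them from clumping and help them fold. Hsp70 proteins grip short stretches of a chain and release them on an ATP cycle, J proteins (Dnaja, Dnajb and Dnajc) bring clients to Hsp70 and switch that cycle, and Hsp110 proteins reload it. Small heat shock proteins bind unfolding chains without ATP and are abundant in muscle, where they sit on the contractile apparatus. In the mitochondrial matrix Hspa9 pulls in and folds imported proteins, and the Hspd1 barrel with its Hspe1 lid folds them further. When unfolded protein builds up, heat shock factor 1 binds DNA elements made of inverted GAA and TTC units and switches on the inducible members of the set.

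Those elements are shown for a few of the genes the results turn on. Each line gives the 150 bases just before the gene start from RefSeq (GRCm38.p6), 5′ to 3′ on the strand of the gene, with every pair of inverted units (GAANNTTC or TTCNNGAA, read on both strands because each motif is its own reverse complement) in capitals. Hsph1 and Hspe1 are shown as inducible members of the cytosol and the mitochondrion, Hspa1b and Dnaja1 as an inducible Hsp70 and its J protein, and Dnajb4 because its values went opposite ways in the 2 tables. Hsph1 lies on the minus strand at chr5:149636316-149636465, Hspe1 on the plus strand at chr1:55087998-55088147, Hspa1b on the minus strand at chr17:34959239-34959388, Dnaja1 on the plus strand at chr4:40722318-40722467, and Dnajb4 on the minus strand at chr3:152193846-152193995.
Hsph1: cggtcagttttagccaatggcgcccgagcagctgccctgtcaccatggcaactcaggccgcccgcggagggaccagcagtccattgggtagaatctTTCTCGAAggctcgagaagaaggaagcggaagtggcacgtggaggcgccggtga
Hspe1: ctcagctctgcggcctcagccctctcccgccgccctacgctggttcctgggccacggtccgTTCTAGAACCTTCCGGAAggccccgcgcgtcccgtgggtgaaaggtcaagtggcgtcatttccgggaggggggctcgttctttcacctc
Hspa1b: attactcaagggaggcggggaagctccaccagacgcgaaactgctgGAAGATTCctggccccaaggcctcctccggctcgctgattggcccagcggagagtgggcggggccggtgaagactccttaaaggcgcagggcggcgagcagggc
Dnaja1: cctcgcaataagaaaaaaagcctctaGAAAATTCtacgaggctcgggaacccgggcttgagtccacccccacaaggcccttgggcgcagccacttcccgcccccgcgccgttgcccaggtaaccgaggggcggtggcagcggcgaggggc
Dnajb4: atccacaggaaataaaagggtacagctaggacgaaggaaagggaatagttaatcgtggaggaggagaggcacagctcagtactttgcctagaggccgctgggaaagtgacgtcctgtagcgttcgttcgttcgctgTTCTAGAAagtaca

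Hspe1 has the longest run, in which units overlap so that 3 pairs are read in 1 block. Its neighbour Hspd1 is transcribed the other way from the same stretch: the 300-base windows of both genes share 285 bases, so the block belongs to both. The 150 bases before Hspa1a are equal to those of Hspa1b at 149 positions, and probe sets for these near-identical genes may not tell them apart. Of the 54 members, 44 had a promoter entry. A pair of units lay within 250 bases before to 50 bases after the start in 14 of these 44 (31.8%), against 17% of the 27025 genes with an entry. A run of 3 alternating units was found in 4 members (9.09%: Dnajb6, Hspd1, Hspe1 and Hsph1), against 0.662% of all genes. Among the inducible members with an entry, 7 of 9 held a pair. These members were listed as known targets of heat shock factor 1, so that count is no separate result. Hspd1 with Hspe1, and Hspa1a with Hspa1b, are also not independent sequences in these counts. These matches are letters in a window and describe no binding.

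In the wild-type hearts, sepsis was accompanied by a mixture of higher and lower values rather than a rise of the whole set. Over both septic groups together, 17 of the 54 members had a higher mean than in sham hearts and 37 a lower one. Their median difference was -0.30 standardised units, against 0.02 for all genes, of which 50.8% were higher. No member passed the adjusted threshold of 0.05 (limma, Benjamini-Hochberg over all 12393 genes), where 0.718% of all genes did. At an unadjusted p under 0.05 there were 10 members, 4 higher and 6 lower, which is 18.5% of the set against 18.6% of all genes. With eBayes moderation no member and no other gene passed. The lowest adjusted p of a member was 0.0725.

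Among the 10 Hsp70 and Hsp110 members, 4 had all Max Dep hearts above all Min Dep hearts, as did 7.89% of all genes, and none passed. Hspa8, the constitutive cytosolic Hsp70, read -0.29, -0.53 and -0.20 in the sham hearts, -1.08, -0.54 and -0.44 in the Min Dep hearts, and 0.64, 2.11 and 0.78 in the Max Dep hearts. All 3 Max Dep hearts lay above the other 6. Max Dep exceeded sham by 1.51 ± 0.42 (SE, adjusted p = 0.167, 3 hearts a group) and Min Dep by 1.87 ± 0.42 (adjusted p = 0.349). Min Dep differed from sham by -0.35 ± 0.42 (adjusted p = 0.725). Tested singly for Max Dep against sham, the Hspa8 probe sets ran from 0.43 ± 0.81 (1431182_at) to 2.05 ± 0.63 (1455789_x_at).

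Hsph1, the Hsp110 that reloads Hspa8, read -0.74, -0.55 and 0.47 in sham hearts, -0.24, 0.39 and -2.03 in Min Dep hearts, and 0.88, 0.59 and 1.30 in Max Dep hearts. Again the Max Dep hearts were the 3 highest, and 1 Min Dep heart, replicate 3, was far below the rest. The difference was 1.20 ± 0.69 against sham (adjusted p = 0.436) and 1.55 ± 0.69 against Min Dep (adjusted p = 0.523). The Hsph1 probe sets did not move together for Max Dep against sham. Tested singly, 1425993_a_at differed by 2.05 ± 0.57 (adjusted p = 0.131) and 1423566_a_at by 0.35 ± 0.87 (adjusted p = 0.871). Hsp90aa1, the non-member named above, also had its 3 highest values in the Max Dep hearts: -0.60, -0.80 and 0.33 in sham hearts, -0.92, -0.00 and -1.11 in Min Dep hearts, and 1.63, 0.80 and 0.96 in Max Dep. Its mean differed by 1.49 ± 0.45 between Max Dep and sham (adjusted p = 0.192). Its 3 probe sets did not move together: tested singly, 1438902_a_at rose by 2.29 ± 0.36 (adjusted p = 0.0488), 1437497_a_at differed by 2.10 ± 0.54 (adjusted p = 0.113) and 1426645_at by 0.06 ± 0.64.

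The stress-inducible twins Hspa1a and Hspa1b had their highest values in sham hearts. Hspa1a read 2.07, 0.27 and 0.51 in sham hearts, -1.11, 0.56 and -1.19 in Min Dep hearts, and -0.73, 0.37 and -0.59 in Max Dep hearts. Hspa1b read 0.98, 0.00 and 1.82 in sham hearts, 0.06, -1.37 and -1.11 in Min Dep hearts, and -0.23, -0.15 and -0.16 in Max Dep hearts. The groups overlapped for Hspa1a, whereas for Hspa1b the Max Dep hearts lay just below the lowest sham heart. Over both septic groups the differences were -1.40 ± 0.62 for Hspa1a (adjusted p = 0.301) and -1.43 ± 0.48 for Hspa1b (adjusted p = 0.199).

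Hspa4l, another Hsp110 that is inducible by heat, was lower in all 6 septic hearts (-2.25 to 0.40) than in the sham hearts (0.41 to 1.60), by 1.31 ± 0.58 (adjusted p = 0.302), although the nearest values almost touched. Tested singly for Max Dep against sham, its probe sets differed by -1.42 ± 0.67 (1418253_a_at) and -0.17 ± 0.76 (1449010_at). Hspa4, the close relative of Hspa4l, overlapped between all groups (0.11 ± 0.45). Hspa12b, a divergent Hsp70 known from endothelium, read -0.39, 1.36 and 2.17 in sham hearts against -1.91 to -0.11 in septic hearts, a difference of -1.58 ± 0.65 (adjusted p = 0.270). In Min Dep hearts all 10 Hsp70 and Hsp110 members had a mean below sham, with a median difference of -1.20. Of all genes 54.5% were higher there. Only for Hspa4l did the Min Dep and sham hearts not overlap. The low means of Hspa4 and Hsph1 rested on Min Dep replicate 3, which read -0.93 and -2.03. The other Min Dep hearts read 0.39 and -0.12 for Hspa4, and -0.24 and 0.39 for Hsph1. In Max Dep hearts 4 of the 10 members had a mean above sham.

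**Figure D1:**
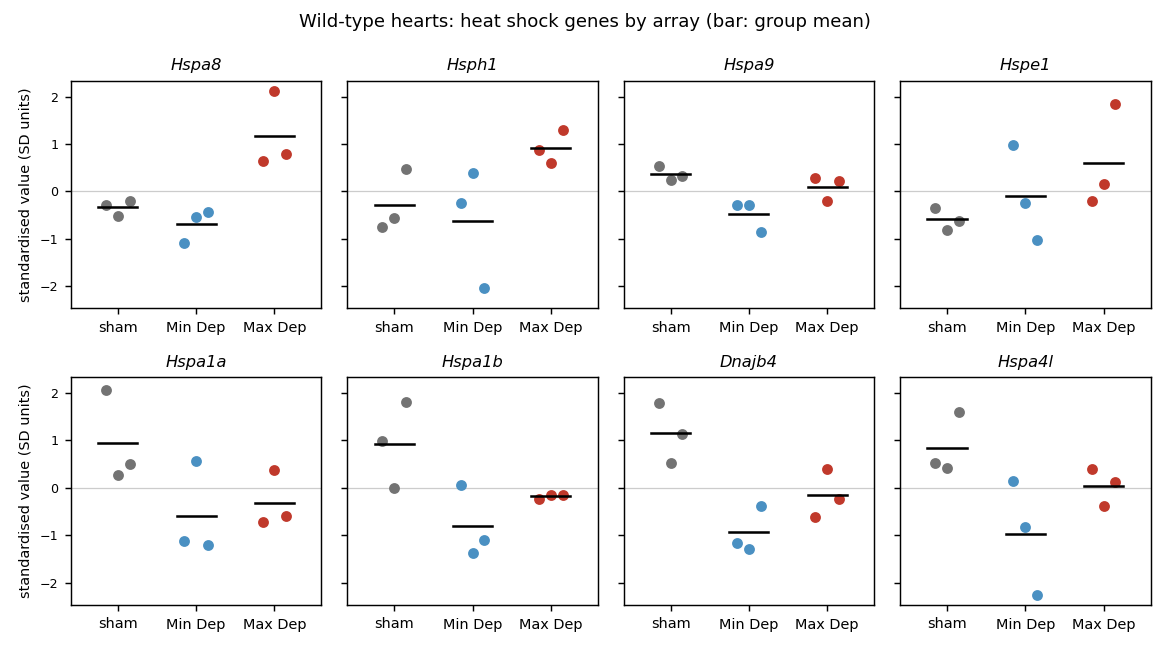
Standardised values (SD units, vertical axis) of 8 heat shock genes in the 3 sham, 3 Min Dep and 3 Max Dep wild-type hearts; each point is 1 array and each bar a group mean. Hspa8 and Hsph1 are highest in the 3 Max Dep hearts, while Hspa1a, Hspa1b, Dnajb4 and Hspa4l have their highest values in sham hearts.

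Among the small heat shock proteins the muscle members diverged. Hspb3, a muscle small heat shock protein that pairs with Hspb2, read 0.98, 1.22 and 1.38 in sham hearts, -1.21, 0.22 and -0.99 in Min Dep hearts, and -0.77, -1.46 and 0.63 in Max Dep hearts. All septic hearts lay below all sham hearts (-1.79 ± 0.54, adjusted p = 0.165), the lowest difference of any member over both septic groups. Its partner Hspb2 read -1.64, -1.18 and 0.15 in sham hearts, 0.91, -1.08 and 0.07 in Min Dep hearts, and 0.92, 0.60 and 1.20 in Max Dep hearts. The Max Dep hearts lay above sham (1.80 ± 0.66, adjusted p = 0.256) and Min Dep overlapped it.

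Hspb8, which works with Bag3 to clear damaged filaments, lay in the septic hearts between -0.04 and 0.99, and in the sham hearts at -1.57, -0.32 and 0.04 (0.95 ± 0.41, adjusted p = 0.295). Tested singly, its probe sets ran from -0.76 ± 0.89 (1417014_at) to 1.94 ± 0.37 (1417013_at, adjusted p = 0.0569). Hspb1, the broadly expressed inducible small heat shock protein, ranged from -2.20 to 1.44 in septic hearts around sham values of -0.23 to 0.23 (-0.01 ± 0.81). Hspb7, a filament protein of heart muscle, differed by -0.85 ± 0.61 (adjusted p = 0.522) with overlapping groups. Its probe sets also had both signs, from -1.91 ± 0.51 (1421289_at) to 0.79 ± 0.76 (1434927_at). Cryab, the abundant small heat shock protein of muscle that the symbol rule leaves out, was 0.98 ± 0.36 higher over both septic groups (adjusted p = 0.228), and Cryaa differed by -0.11 ± 0.50. That mean of Cryab joins probe sets of opposite sign: tested singly, 1434369_a_at rose by 1.80 ± 0.29 (adjusted p = 0.0413), 1416455_a_at differed by 1.70 ± 0.41 (adjusted p = 0.0934) and 1435837_at by -0.56 ± 0.68.

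Of the 7 mitochondrial members, 6 had lower values in Min Dep than in sham hearts (median -0.85) and 4 in Max Dep hearts (median -0.05). Hspd1 read 0.62, 0.06 and 0.72 in sham hearts, -0.54, 0.66 and -2.04 in Min Dep hearts, and -0.80, -0.58 and 1.81 in Max Dep hearts. Hspe1 read -0.34, -0.81 and -0.62 in sham hearts, 0.97, -0.23 and -1.02 in Min Dep hearts, and -0.20, 0.16 and 1.85 in Max Dep hearts. Although barrel and lid share 1 promoter stretch, Hspd1 differed by -0.71 ± 0.82 and Hspe1 by 0.84 ± 0.61 over both septic groups, with overlapping hearts in each (adjusted p = 0.709 and 0.533). In both genes Max Dep replicate 3 was the highest heart, and Min Dep replicate 3 the lowest.

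Dnaja3, the J protein of the mitochondrial matrix, was lower in all septic hearts (-0.84 to 0.28) than in sham hearts (0.29 to 1.37), by 1.23 ± 0.32 (adjusted p = 0.126). Hspa9, the matrix Hsp70, read 0.53, 0.24 and 0.33 in sham hearts, -0.29, -0.29 and -0.86 in Min Dep hearts, and 0.27, -0.21 and 0.23 in Max Dep hearts. Its Min Dep hearts lay below both other groups (-0.85 ± 0.21 against sham, adjusted p = 0.142). That mean hides probe sets that disagree.

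Of the 32 members measured by several probe sets, 22 had probe sets of both signs in the comparison of all septic with sham hearts, and Hspa9, Dnajb6 and Dnaja2 had the widest gaps. Hspa9 probe set 1418503_at read -1.27, -0.98 and -0.90 in sham hearts, -0.15, -0.68 and -0.18 in Min Dep hearts, and 1.58, 1.33 and 1.47 in Max Dep hearts. Its probe set 1431274_a_at read 0.81, 1.89 and 1.33 in sham hearts, -1.04, -0.67 and -1.14 in Min Dep hearts, and 0.24, -1.12 and -0.35 in Max Dep hearts. So the first placed the Max Dep hearts above, and the second below, every sham heart. With all 22626 probe sets tested singly, 1418503_at rose by 1.61 ± 0.16 with sepsis (adjusted p = 0.023) and by 2.51 ± 0.18 in Max Dep against sham (adjusted p = 0.0258).

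In that probe-set fit 5 of the 107 member probe sets passed for all septic against sham hearts (2.57% of all probe sets did), and 3 passed for Max Dep against sham (1.71% of all). The others for all septic hearts were 1 probe set each of Dnaja2 (-1.90), Dnaja3 (-2.10), Dnaja4 (-2.10) and Dnajb4 (-2.003), all lower. For Max Dep against sham the others were the same Dnaja2 probe set (-2.35) and 1 of Dnajc14 (2.40). The second Dnaja2 probe set differed by 1.09 ± 0.59 the other way. The 4 probe sets of Dnajb6, a J protein of muscle Z-discs, ran from -1.80 to 1.31. Which transcripts each probe set reads was not analysed here.

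Among the J proteins of the cytosol, Dnajb2 and Dnajc2 were higher in every septic heart and Dnaja4 and Dnajb4 lower in every septic heart. Dnajb2, which hands clients to the proteasome, read -1.18, -1.15 and -1.20 in sham hearts, 0.86, -0.60 and 1.27 in Min Dep hearts, and 1.19, 0.47 and 0.35 in Max Dep hearts. Its difference was 1.77 ± 0.44 (adjusted p = 0.119, range over the alternatives 0.0384 to 0.397). It passed only without Min Dep replicate 2 (2.04), a fit in which 186 of the 12393 genes passed. Dnajc2, which meets new chains at the ribosome, read -0.48, -0.84 and -1.04 in sham against 0.11 to 1.02 in septic hearts (1.20 ± 0.24, adjusted p = 0.0725). Tested singly, its probe sets ran from 0.28 ± 0.84 (1425910_at) to 1.83 ± 0.47 (1417657_s_at). For 1425910_at, Min Dep replicate 1 (-1.18) lay below every sham heart.

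Dnaja4, a J protein abundant in heart, read 0.75, 0.94 and 1.89 in sham hearts, -1.34, -0.99 and -0.24 in Min Dep hearts, and 0.24, -0.64 and -0.45 in Max Dep hearts (-1.76 ± 0.39, adjusted p = 0.0931). Dnajb4, a J protein of muscle, read 1.79, 0.52 and 1.14 in sham hearts, -1.17, -1.28 and -0.37 in Min Dep hearts, and -0.62, 0.39 and -0.23 in Max Dep hearts (-1.70 ± 0.39, adjusted p = 0.0998). Each septic heart lay below each sham heart for both genes in the mean over probe sets. The probe sets 1434196_at of Dnaja4 and 1451177_at of Dnajb4 overlapped. The inducible Dnaja1 and Dnajb1 showed no such order: sham values ran from -1.13 to 1.78 and from -1.10 to 2.14 and overlapped those of both septic groups.

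Dnajc21, a ribosome-assembly J protein (1.74 ± 0.44, adjusted p = 0.122), and Dnajc8, a J protein of the spliceosome (1.53 ± 0.42, adjusted p = 0.137), had the highest differences of the Dnajc members, and with Dnajb2 and Hspb2 (1.33 ± 0.57, adjusted p = 0.287) they were the 4 highest of the whole set. All 4 were measured by 1 probe set. Averaging standardised probe sets that disagree shrinks a difference, so members with 1 and with several probe sets do not rank on equal terms. Probe set 1417013_at of Hspb8, for example, differed by 1.94 when tested singly. The same limit holds for the other rankings of wild-type members. Of the 18 Dnajc members outside the mitochondrion, 8 had higher and 10 lower values, from -1.20 to 1.74. Members whose septic and sham hearts did not overlap at all numbered 2 higher (Dnajb2 and Dnajc2), where 5.89% of all genes were, and 5 lower (Dnaja3, Dnaja4, Dnajb4, Hspa4l and Hspb3), where 6.11% were.

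The 2 septic groups were then taken singly against sham; they share the sham hearts, so their values are given side by side. In Max Dep hearts 24 of 54 members were higher than sham (median -0.26, all genes -0.09), and 0 passed in limma, against 0.452% of all genes. In Min Dep hearts 13 of 54 were higher (median -0.43, all genes 0.12), and 0 passed, against 0.0565%. At an unadjusted p under 0.05 there were 11 members in Max Dep hearts (6 higher, 5 lower; 20.4%, all genes 16.7%) and 12 in Min Dep hearts (3 higher, 9 lower; 22.2%, all genes 16.4%). eBayes moderation also passed 0 members in both.

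Max Dep and sham hearts did not overlap for 10 members that were higher: Dnajb2, Dnajc2, Dnajc8, Dnajc13, Dnajc21, Hspa8, Hspb2, Hspb8, Hspe1 and Hsph1 (13.8% of all genes were higher in this way). They did not overlap for 9 that were lower: Dnaja2, Dnaja3, Dnaja4, Dnajb4, Dnajc5b, Dnajc28, Hspa1b, Hspa4l and Hspb3 (12.7% of all genes). Dnajc21 had the highest difference (2.18 ± 0.51, adjusted p = 0.128), followed by Dnajc8 (2.07 ± 0.49, adjusted p = 0.129), Dnajb2 (1.85) and Hspb2 (1.80). The lowest were Hspb3 (-1.73), Dnajc28 (-1.48), Dnaja4 (-1.48) and Dnajb3 (-1.47). Min Dep and sham hearts did not overlap for 2 higher members, Dnajb2 and Dnajc2 (10.9% of all genes), and 8 lower ones, Dnaja3, Dnaja4, Dnajb4, Dnajb5, Dnajc24, Hspa4l, Hspa9 and Hspb3 (12.4%). The highest there were Dnajb2 (1.68), Dnajc21 (1.30), Dnajc2 (1.27) and Dnajc8 (1.00), and the lowest Dnajb4 (-2.09), Dnaja4 (-2.05), Hspa12b (-1.92) and Hspb3 (-1.86).

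**Figure D2:**
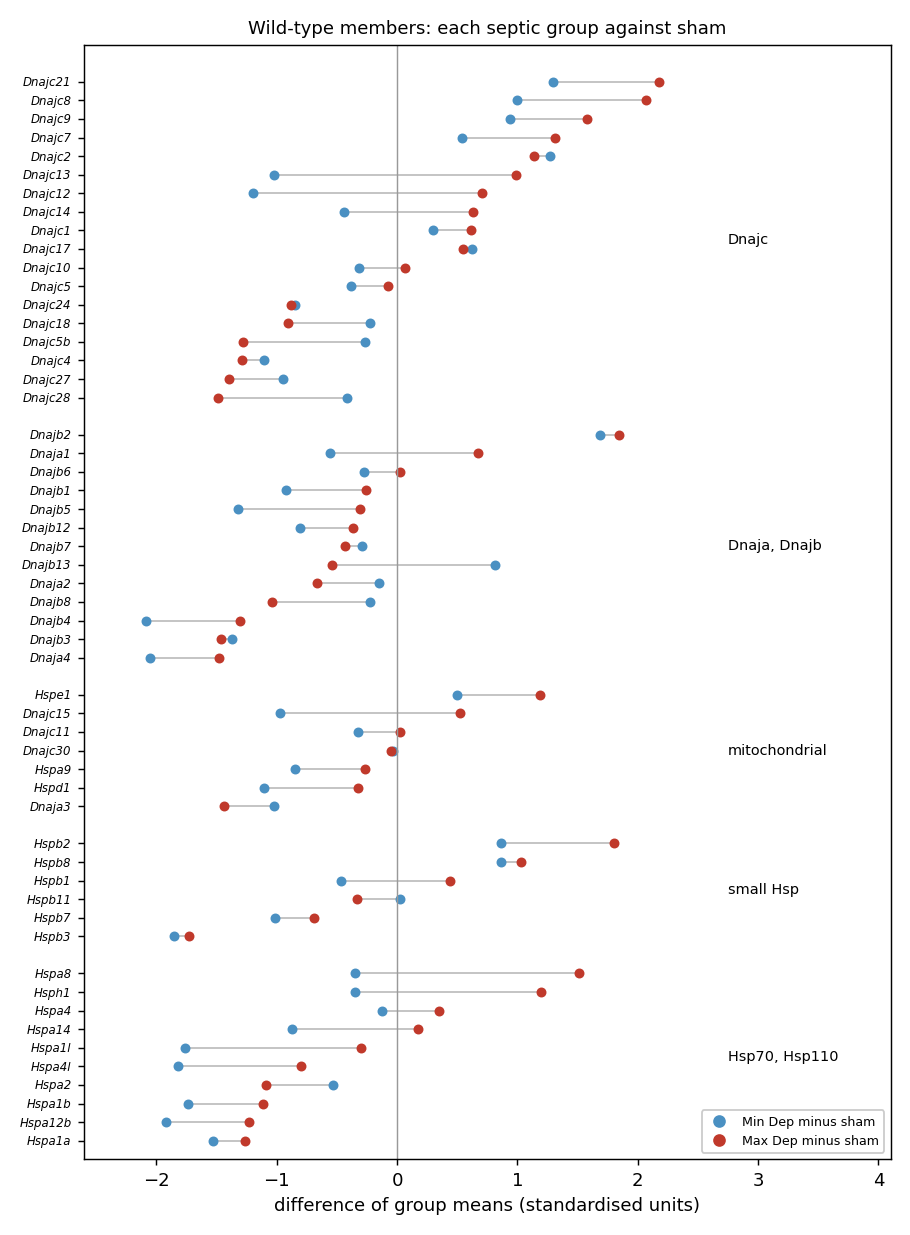
Differences of group means from sham (standardised units, horizontal axis) for all 54 members, ordered within 5 families; blue points are Min Dep and red points Max Dep hearts, joined by a line for each gene. All 10 Hsp70 and Hsp110 members lie below 0 in Min Dep hearts, although only Hspa4l had no overlap between Min Dep and sham hearts. Hspa8 and Hsph1 lie above 0 in Max Dep hearts.

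Set directly against each other, Max Dep hearts had higher values than Min Dep hearts in 37 of 54 members (median 0.41, all genes -0.08 with 46.7% higher). No member and no other gene passed in limma (0%), and eBayes passed 0 too. At an unadjusted p under 0.05 there were 4 members, all higher (7.41%, all genes 9.81%): Hspa8, Hspa9, Dnajc12 and Dnajc13. Dnajc13, an endosomal J protein, had the largest difference (2.01 ± 0.73, adjusted p = 0.473), then Dnajc12 (1.90 ± 0.66, adjusted p = 0.457). Dnajc12 read -2.22, -0.78 and 0.07 in Min Dep and 1.67, 0.21 and 0.88 in Max Dep hearts. The lowest were Dnajb13 (-1.35), Dnajc28 (-1.06), Dnajc5b (-1.01) and Dnajb8 (-0.81). The groups did not overlap for 8 higher members, Dnajc7, Dnajc12, Dnajc15, Hspa1l, Hspa8, Hspa9, Hspa12b and Hsph1 (7.89% of all genes), and for Dnaja2 as the only lower one (7.43%). Dnaja3 was lower in Max Dep hearts by 0.41 with overlap, and Hspb8, Hspb7 and Hspa4 had small positive differences of 0.17, 0.33 and 0.47.

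The inducible genes lay on the same side in this comparison. This list of 11 measured targets of heat shock factor 1 holds 10 members (Hspa1a, Hspa1b, Hspa4l, Hspa8, Hspb1, Hspd1, Hspe1, Hsph1, Dnaja1 and Dnajb1) and Hsp90aa1. All 11 had a higher mean in Max Dep than in Min Dep hearts, from 0.27 for Hspa1a to 1.87 for Hspa8, with a median of 0.90. The same held for each of their 24 probe sets, where 48.2% of all probe sets were higher. The list was known from earlier results of these data to be higher on balance, so the count is no independent support. Against sham, 6 of the 11 were higher in Max Dep and 1 of the 11, Hspe1, in Min Dep hearts.

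A single heart held most of the lowest values. The mean of the 11 genes was 0.04, -0.28 and 0.80 in the sham hearts, -0.33, -0.08 and -1.41 in the Min Dep hearts and 0.14, 0.49 and 0.68 in the Max Dep hearts. Min Dep replicate 3 held the lowest value of the 9 hearts in 8 of the 11 genes, and sham replicate 3 and Max Dep replicate 3 the highest in 4 each. Without Min Dep replicate 3, Max Dep replicate 2 or Max Dep replicate 3, 10 of the 11 were still higher in Max Dep hearts. Every Max Dep heart had a list mean above every Min Dep heart, but sham replicate 3 had a higher one than all of them. Over all 54 members, the median per heart was -0.01 to 0.30 in sham hearts, -0.31 to -0.23 in Min Dep and 0.10 to 0.30 in Max Dep hearts.

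Other quantities moved with these groups. The mean of 10 macrophage and monocyte markers was -1.37 to -0.68 in sham hearts, 0.15 to 0.51 in Min Dep and 0.41 to 1.09 in Max Dep hearts, with all 10 higher than sham in both septic groups. That of 11 heart muscle markers was 0.30 to 0.49, -1.10 to 0.18 and -0.27 to 0.65, that of 4 B cell markers -0.39 to 0.61, 0.11 to 1.43 and -1.27 to -0.47, and that of 7 fibroblast markers 0.90 to 1.18, -1.74 to 0.20 and -0.44 to 0.20. Of these, only the B cell means separated Max Dep from Min Dep hearts, with all 4 markers lower in Max Dep hearts and 3 not overlapping. The 5′ minus 3′ difference of the control probe sets, a sign of RNA integrity, was 0.39 to 1.76, -0.56 to 0.07 and -1.85 to 0.53. Their part in the heat shock values was not tested. In a fit with the 5′ minus 3′ difference as a covariate 0 members passed, as in the fit without it. All 11 inducible genes remained higher in Max Dep than in Min Dep hearts there. That fit is no test of RNA integrity as a cause, because no member passed in the first place and the 2 septic groups overlap in this difference.

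In the knockout hearts, most members had higher values with sepsis, and Hsph1 and Hspa8 had the largest positive differences. Of the 54 members 38 were higher than in knockout sham hearts and 16 lower, with a median difference of 0.34 centred log units (all genes 0.03, 51.5% higher). No member and no other gene passed in limma (0%), with 2 CLP hearts against 3 sham hearts. At an unadjusted p under 0.05 there were 9 members, 7 higher and 2 lower (16.7%, all genes 11.9%), and unmoderated statistics passed 0 members as well.

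Hsph1 read 2.32, 4.63 and 2.50 in the CLP hearts and -0.28, -0.23 and 0.53 in the sham hearts. Hspa8 read 1.55, 3.19 and 1.58 in CLP and -0.78, -0.79 and 0.30 in sham hearts. For both genes every CLP heart lay above every sham heart. The differences, without CLP replicate 1, were 3.56 ± 0.71 for Hsph1 (adjusted p = 0.128) and 2.81 ± 0.65 for Hspa8 (adjusted p = 0.167). Hsp90aa1 read 1.67, 4.81 and 1.18 in CLP and -0.38, -0.52 and 0.07 in sham hearts (3.27 ± 1.02, adjusted p = 0.275).

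Hspa1a and Hspa1b rested on 1 tested heart. Hspa1a read 1.19, 3.46 and 0.00 in CLP and -0.14, -0.13 and 0.03 in sham hearts, and Hspa1b read 0.78, 2.18 and -0.19 against -0.14, -0.07 and 0.04. Dnaja1 had the same shape, with 0.66, 2.62 and -0.59 in CLP hearts and -0.17, -0.07 and 0.15 in sham hearts. In all 3 genes CLP replicate 2 was high, while CLP replicate 3 lay within the sham range for Hspa1a and below it for Hspa1b and Dnaja1. The exact 0.00 of Hspa1a in replicate 3 is 1 of 2693 such entries in that column, and what they stand for is not given. CLP replicate 2 and sham replicates 2 and 3 hold 2774 to 2786 each. The values of 0.00 given below for Hspa12b, Dnajc7, Dnajb2 and Hspb2 are such entries too. Exact zeros also enter the means of other members, such as Hspa8 and Dnajb4.

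Hspd1 read 0.55, 0.53 and 1.28 in CLP and -1.83, -0.29 and 0.32 in sham hearts, and Hspe1 0.57, 0.88 and 1.02 against -1.79, -0.38 and 0.38. In these hearts barrel and lid lay on the same side (1.51 ± 0.71 and 1.55 ± 0.69, adjusted p = 0.484 and 0.453), and no CLP heart overlapped sham. Hspa9 (0.47 ± 0.49) and Dnaja3 (0.34) overlapped. Hspa4 (1.01 ± 0.52) and Hspa4l (1.63 ± 0.51, adjusted p = 0.273) were above sham in the CLP hearts, and Dnajb1 overlapped it (0.80 ± 0.58).

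Small heat shock proteins varied widely between the knockout hearts. Hspb2 read 0.72, 0.76 and 2.28 in CLP and -3.00, -0.58 and 0.00 in sham hearts (2.71 ± 0.98, adjusted p = 0.346). Hspb1 read 0.18, 1.83 and -1.12 in CLP and -1.37, 0.67 and 2.09 in sham hearts, a complete overlap (-0.11 ± 1.23). Hspb7 and Hspb8 differed by 1.13 ± 1.05 and 1.17 ± 1.00, with overlapping hearts.

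Dnajc2 read 0.88, 2.19 and 1.68 in CLP and -0.26, -0.79 and -0.56 in sham hearts (2.47 ± 0.43, adjusted p = 0.106). Dnajb2 read 0.99, 1.61 and 1.15 in CLP and -0.56, -0.10 and 0.00 in sham hearts (1.60 ± 0.44, adjusted p = 0.218). Both were thus higher in every septic heart of each table, for Dnajc2 in the mean of probe sets that disagree in size. Tested singly in knockout hearts, the Dnajc2 probe sets ran from 0.16 ± 0.46 (1454219_at) to 5.03 ± 0.94 (1448794_s_at). For 1454219_at, CLP replicate 2 (-0.29) lay below every sham heart. Of the 32 members with several probe sets, 11 had both signs in knockout hearts. Dnajb4 read 1.11, 2.38 and 1.25 in CLP and -1.97, -0.13 and 0.27 in sham hearts (2.43 ± 0.78, adjusted p = 0.286). Its direction was opposite to that in wild type, as was that of Hspa4l. Opposite directions without overlap in both tables were found for these 2 members and for 1.04% of all genes. In wild type this held for the mean over probe sets, while a probe set of each gene overlapped. For 1451177_at of Dnajb4, Max Dep replicate 2 read 0.94 and the sham hearts 1.89, 0.22 and 0.77. For 1449010_at of Hspa4l, Max Dep replicate 1 read 1.32 and the sham hearts 0.40, 0.15 and 1.26. The difference between the genotypes was not tested, because the tables cannot be joined.

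Some members were lower in the knockout septic hearts. Dnajc7, which bridges Hsp70 and Hsp90, read -1.95, -2.47 and -2.27 in CLP and 0.25, 0.00 and 0.63 in sham hearts. Its difference of -2.66 ± 0.43 had the lowest adjusted p of the members (0.0924, range over the alternatives 0.0266 to 0.302), and it passed only with CLP replicate 1 kept (-2.52). With that replicate kept, 295 of the 12393 genes passed. In the wild-type hearts Dnajc7 was 0.93 higher with sepsis in value, with overlapping groups. Sham replicate 1 carried that difference: the wild-type sham hearts read -2.74, 0.71 and 0.28, and the septic hearts -0.46 to 1.10. Hspa12b read -1.07, 0.00 and -2.62 in CLP and 2.57, 2.51 and 0.59 in sham hearts (-3.20 ± 0.96, adjusted p = 0.262). Hspa2, a testis-enriched Hsp70, and Dnajc5, a J protein of secretory vesicles, completed the lowest 4 with -1.11 ± 0.81 and -0.73 ± 0.47.

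CLP and sham hearts did not overlap, leaving out CLP replicate 1, for 11 higher members: Dnajb2, Dnajb4, Dnajc2, Dnajc12, Hspa4, Hspa4l, Hspa8, Hspb2, Hspd1, Hspe1 and Hsph1 (15% of all genes). The lower ones were Dnajc5, Dnajc7 and Hspa12b (14% of all genes).

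**Figure D3:**
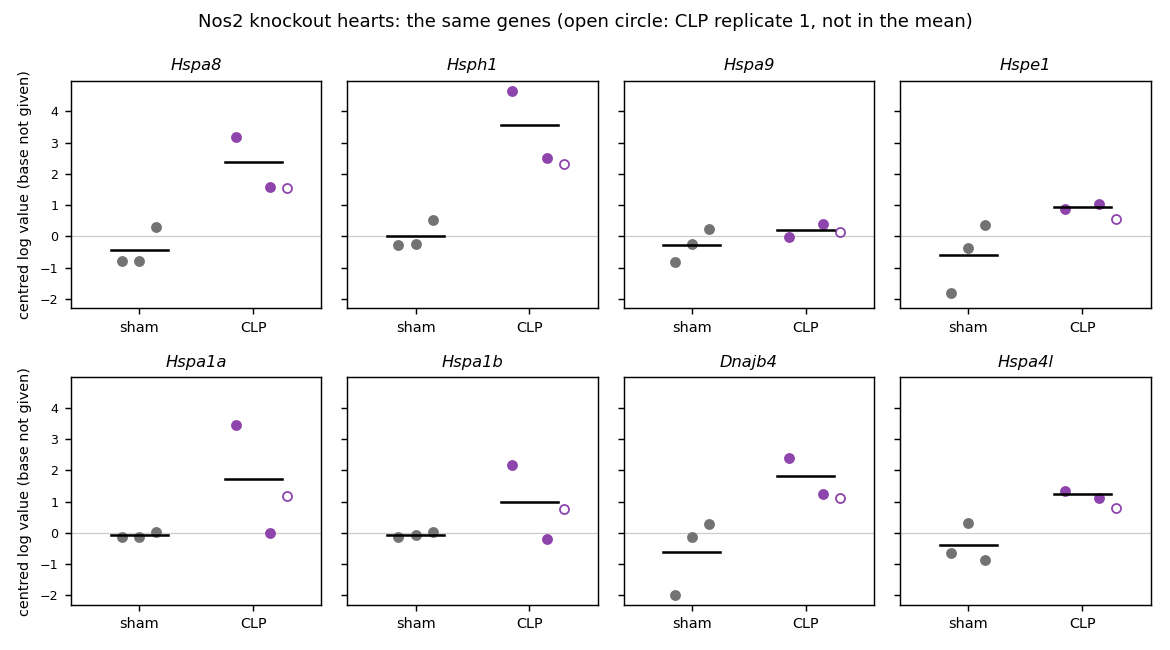
Centred log values (base not given, vertical axis) of the same 8 genes in the 3 sham and 3 CLP knockout hearts; bars are group means and the open circle is CLP replicate 1, which the means leave out. Hspa8, Hsph1, Hspe1, Dnajb4 and Hspa4l lie above sham in all CLP hearts, while Hspa1a and Hspa1b are high in CLP replicate 2 only among the tested hearts.

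By heart, the mean of the 11 inducible genes was 0.97, 2.43 and 0.61 in the knockout CLP hearts and -0.75, -0.17 and 0.30 in the sham hearts. CLP replicate 2 held the highest value of the 6 hearts in 8 of the 11 genes. Of the 11, 10 were higher with sepsis, and 8 when CLP replicate 2 was left out. That heart also had the lowest heart muscle marker mean, -1.83 against 0.44 in CLP replicate 3 and -0.62 to 0.83 in sham hearts. Its macrophage marker mean was 2.72 against 2.02 in CLP replicate 3 and -0.60 to 0.04 in sham hearts. The 5′ minus 3′ control difference was -2.06 and -0.78 in the tested CLP hearts and -1.97 to 0.98 in sham hearts. The 6 endothelial markers had a mean of -2.47 to -0.97 in the tested CLP hearts and 0.86 to 1.90 in sham hearts, on the same side as Hspa12b. In wild-type hearts 4 of the 6 were higher with sepsis (median 0.84), the side opposite to Hspa12b; the part of these quantities in the results was not tested. Sham replicate 1 held the lowest value in 23 of the 54 members.

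**Figure D4:**
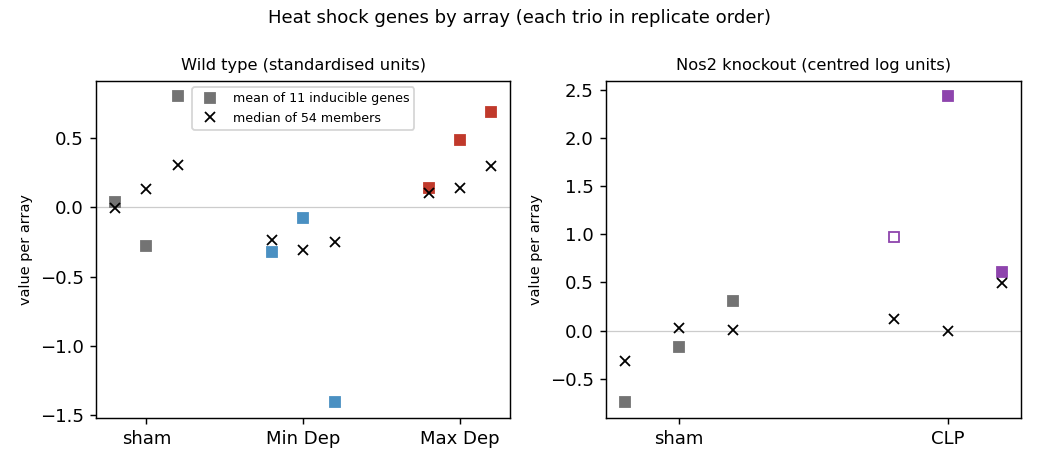
Mean of the 11 inducible genes (squares) and median of the 54 members (crosses) in each heart, in standardised units for wild type and centred log units for knockout; hearts of a group stand in replicate order and the open square is knockout CLP replicate 1. The list mean of -1.41 in Min Dep replicate 3 and that of 2.43 in knockout CLP replicate 2 stand apart from the other hearts of their groups.

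The partners of the heat shock proteins were read from lists that are no part of the set. Of 20 co-chaperones of Hsp70 and Hsp90, 12 were higher over both wild-type septic groups (median 0.25), 0 passed, and the ubiquitin ligase Stub1 (1.79 ± 0.27, adjusted p = 0.0543) and the Hsp70 release factor Bag4 (-1.48 ± 0.36, adjusted p = 0.113) were its ends. Stub1 read -0.85, -1.21 and -1.53 in sham against -0.08 to 1.42 in septic hearts. Between the septic groups Ahsa1, which stimulates Hsp90, was the highest, 2.24 ± 0.47 higher in Max Dep hearts (adjusted p = 0.332) with no overlap, and Tomm34 the lowest (-1.10 ± 0.64, adjusted p = 0.593). In knockout hearts 10 of 20 were higher, from -0.92 for Bag5 to 1.86 for Chordc1.

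Of the heat shock factors, Hsf2 and Hsf4 were measured, and with them Hsbp1, which binds heat shock factor 1. Hsbp1 was lower in all septic wild-type hearts (-1.26 to 0.18) than in sham hearts (0.27 to 1.45), by 1.46 ± 0.29 (adjusted p = 0.0766). Hsf2 differed by 0.60 ± 0.87 and Hsf4 by 0.24 ± 0.59. In knockout hearts the differences of Hsbp1, Hsf2 and Hsf4 were 0.75, 2.50 and -0.35, all with overlapping hearts. That of Hsf2 rested on sham replicate 1, which read -5.52, and was 0.51 without it, as that of Hsbp1 was 0.26. Without CLP replicate 2 that of Hsf4 was 0.08. Hsf1 was not analysed here.

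Among 14 other mitochondrial quality control genes, 7 were higher in septic wild-type hearts (median 0.01) and 0 passed. The protease Lonp1 was highest (1.57 ± 0.53, adjusted p = 0.198) and Grpel1, which recycles Hspa9, lowest (-1.60 ± 0.64, adjusted p = 0.259). In knockout hearts 10 of the 14 were higher, from -1.70 for Clpx to 1.28 for Grpel2.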

How the data were processed

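Biotin-labelled total RNA of 15 hearts was hybridised to short-oligonucleotide arrays. The deposited values are a score without a stated unit: in the wild-type table standardised by the authors per probe set and per array, as the values themselves show, and in the knockout table a centred score that behaves as a log value of unstated base. No tool, background correction or normalisation is named in the labels. The 64 control probe sets were dropped. The platform annotation paired 20380 probe sets with 1 gene, and the values of a gene's probe sets were averaged. All columns belonged to samples of the series.

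Differences were fitted by lmFit from limma 3.58.1 (R 4.3.3), the 9 wild-type arrays in 1 fit with unmoderated statistics, since moderation pulls rows of equal SD to a common spread, and 5 knockout arrays with eBayes. P-values were adjusted by Benjamini-Hochberg over 12393 genes. The fits were run on simulated data with large known changes, which does not show how they would find smaller ones. Differences are group means in the units of the table, ± SE of the fit. Promoter windows came from RefSeq (GRCm38.p6).

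The members, gene lists and tests were chosen with earlier results of these data known. Named throughout were the core members (Hspa1a, Hspa1b, Hspa4, Hspa8, Hspa9, Hsph1, Hspb1, Hspb7, Hspb8, Hspd1, Hspe1, Dnaja1, Dnaja3 and Dnajb1) with the non-member Hsp90aa1, per comparison the 4 highest and 4 lowest members and any past the threshold, the 3 members with the widest gap between probe sets, and the ends of each partner list. Genes without overlap are named as counted. Alternatives were leaving out each array, every probe set, centred arrays, other moderation, standardising again, the 5′ minus 3′ covariate, fewer arrays in the fit, and all 3 knockout CLP arrays.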

Additional observations from a re-analysis of the deposited data

Results flagged for a closer look

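A far value was looked for among the 6 wild-type septic hearts in 33 named members, a search in which chance flags about 1 group in 20. It was found in Hspa12b, where Min Dep replicate 2 read -1.91 and the nearest other septic heart -0.42.

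In 2 members, and in 1.04% of all genes, every septic heart lay on one side of sham in wild type and on the other side in knockout. This holds for the mean over probe sets: in wild type 1451177_at of Dnajb4 and 1449010_at of Hspa4l overlapped sham. Dnajb4 differed by -1.70 in wild-type and by 2.43 in knockout hearts, and Hspa4l by -1.31 and 1.63. These values are on different scales, and the difference between the genotypes was not tested.

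The knockout CLP replicate 1 entered no test. It lay above every knockout sham heart in 9 of 14 core members, and in Hsp90aa1 (1.67) beside them: Hspa1a (1.19), Hspa1b (0.78), Hspa8 (1.55), Hspa4 (0.42), Hsph1 (2.32), Hspd1 (0.55), Hspe1 (0.57), Dnaja1 (0.66) and Dnajb1 (0.40). The share of all genes placed this way was not counted, so the count cannot be read as particular to these members. The column lies between the other CLP columns for most probe sets and for 37 of the 54 members. Whether it is a separate measurement was not tested, and the count is no separate support.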

How the results depend on the processing

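The count of members past the threshold stayed 0 in 64 of 68 recomputations. Testing every probe set gave 5 for wild-type CLP and 3 for Max Dep against sham (2.57% and 1.71% of all probe sets passed). Keeping all 3 knockout CLP arrays gave 1 (Dnajc7, adjusted p = 0.0266), where 295 of the 12393 genes passed. Leaving out 1 array gave 0 to 1 for wild-type CLP and 0 in the other wild-type comparisons. The 1 was Dnajb2 without Min Dep replicate 2 (adjusted p = 0.0384), where 186 of the 12393 genes passed. Of 1342 recomputed differences of named members, 1299 kept sign and side of the threshold, 2 came to pass it, and 41, belonging to 23 of 106 results, changed sign. None of those 41 had passed, and the largest main size among them was 1.13 (Hspb7 in knockout hearts). The median over the members kept its sign in all 68: it ran from -0.42 to -0.21 for wild-type CLP, -0.32 to -0.04 for Max Dep and -0.63 to -0.37 for Min Dep against sham, 0.32 to 0.65 between the septic groups and 0.11 to 0.66 in knockout hearts. The number of inducible genes higher in Max Dep than in Min Dep hearts was 10 or 11 throughout. For Min Dep against sham it ran from 0 to 4, the 4 without sham replicate 3, and for knockout CLP from 8 to 11. The cause of these shifts was not tested. No paired analysis was possible because replicate numbers are accession order and pair nothing. With 3 hearts a group, no signal over background and no level in the wild-type values, neither dim genes nor folds could be assessed.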

Other observations

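Of 14 measured subunits of the cytosolic chaperonin and of prefoldin, which fold actin and tubulin, 13 had higher values over both wild-type septic groups (median 0.93) with 10 of 14 in Min Dep (median 0.34) and all 14 in Max Dep hearts (median 1.495). Pfdn6, a prefoldin subunit, read -0.86, -0.44 and -1.41 in sham, -0.55, -0.77 and -0.24 in Min Dep, and 1.39, 1.64 and 1.53 in Max Dep hearts. It rose by 2.42 ± 0.27 in Max Dep against sham hearts (adjusted p = 0.0403 in limma), the only gene of the list to pass. In that comparison 0.452% of all genes passed, and no gene passed with eBayes. Cct7 was the highest over both septic groups (1.70 ± 0.39) and Cct2 the lowest (-0.11 ± 0.61). In knockout hearts 10 of 14 were higher, from -0.97 for Cct6b to 2.15 for Pfdn2.

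The endoplasmic reticulum chaperones that the symbol rule leaves out (Hspa5, Dnajb9, Dnajb11 and Dnajc3), with Hsp90b1 added to that list, were higher in value in all 5 genes in Max Dep, Min Dep and knockout CLP hearts against their sham hearts, with medians of 1.86, 1.59 and 2.21 on the scales of their own tables. Of all genes, 46.8%, 54.5% and 51.5% were higher in these comparisons. None of the 5 passed in limma. Over both wild-type septic groups Dnajb11 was highest (1.89 ± 0.32, adjusted p = 0.0597) and Dnajb9 lowest (1.04 ± 0.78). In knockout hearts Hsp90b1 read 2.21, 5.19 and 2.32 in CLP and -0.31, -0.63 and 0.13 in sham hearts.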
